A study of Homo sapiens with 6 samples.

Results

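The RAB GTPases were taken as the genes of the deposited expression table whose symbol is RAB followed by a number, with at most a letter and a further digit. Of the 30735 genes in the table, 65 symbols had this form. RAB43P1, RAB28P5 and RAB1C, which are processed pseudogenes, were left out, and 62 genes remained. The samples were SET-2 cells, a human megakaryoblastic leukaemia line that carries mutant JAK2. The labels name 3 samples given placebo, the control group, and 3 given CPL, and both groups are of the same line with no other genetic change named. The series title concerns cell senescence and NF-κB in myeloproliferative neoplasms, and the comparison asks which transcripts differ between CPL and control cells. The labels spell out neither what CPL stands for nor its dose or the time of exposure, and a single line is the only model here.

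RAB proteins are small GTPases that mark the membranes of a cell. In the GTP-bound form each binds effectors that move, tether or fuse the vesicles of its compartment, and exchange factors and GTPase-activating proteins turn it on and off. In megakaryocytes and platelets, RAB27A and RAB27B act in the docking and release of secretory granules, and RAB32 and RAB38 act in the making of lysosome-related organelles such as dense granules and melanosomes. RAB5 proteins mark early endosomes, RAB4 and RAB11 proteins recycling endosomes, and RAB7A and RAB9A late endosomes.

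Polyadenylated RNA was sequenced, and levels are given in FPKM, which divides reads by gene length and library total. The reads behind the values, recovered from the steps between low values, came to 14647833 to 18239406 per library, at which 3 reads on a gene of 1 kb are worth 0.165 to 0.205 FPKM. CPL replicate 1 stood apart from the other libraries in a way that followed base composition. Over all tested genes, the rank correlation between a library's deviation and the GC content of the gene was 0.74 in CPL replicate 1 and between -0.51 and -0.0049 in the other 5. Values without CPL replicate 1 and values with the GC trend removed are therefore given beside results whose call they change, and for several others whose size they change. The labels do not say whether the replicates were separate cultures, so a p-value here speaks only for the scatter among the 6 libraries, and that scatter may be technical. Of the 7 listed megakaryocyte markers in the table, 6 were at 1 FPKM or more in every library, while VWF was close to 0. Their summed level was 231.5 to 261.6 FPKM in control and 240.7 to 362.6 FPKM in CPL libraries. The sums of the erythroid list were 570.0 to 665.1 against 520.2 to 1089 FPKM, and those of the stem and progenitor list 112.5 to 124.2 against 154.1 to 183.7 FPKM. Monocyte markers summed to 56.4 to 61.0 against 51.5 to 53.6 FPKM with CD14, CSF1R and FCGR1A under 1 FPKM, and lymphocyte markers to 11.0 to 13.7 against 9.78 to 14.4 FPKM, with CD79A the only member at 1 FPKM or more in every library. The part of these marker levels in the RAB results was not tested.

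RAB27B was the 1 RAB transcript of the 44 tested that limma called higher in CPL-treated cells. Of all tested genes, 1.76% were called in either direction and 1.09% called higher. The log2 change was positive for 24 of the 44 RABs. For 6 of them every CPL library lay above every control library, as for 14.1% of all tested genes. The level of RAB27B was 15.1, 16.7 and 13.8 FPKM in the control libraries and 27.7, 31.9 and 43.0 FPKM in the CPL libraries. Each CPL library lay above each control library, and CPL replicate 3 was the highest. The means were 15.2 ± 1.45 and 34.2 ± 7.92 FPKM (SD, n = 3 each), a 2.25-fold difference. On the log2(FPKM + 1) scale the change was 1.10 ± 0.17 (SE, 95% interval 0.71 to 1.49), with a limma p of 0.000233 and an adjusted p of 0.0285 over 13092 tested genes. Between 1639 and 2269 reads stood behind each control value and between 3182 and 5132 behind each CPL value. In bulk RNA, more cells with the transcript and more of it per cell cannot be told apart. The call did not hold throughout: the limma adjusted p was 0.139, 0.107 and 0.14 without control replicate 1, 2 and 3, and 0.106 without CPL replicate 2. It was also above the threshold with no filter on low values, at 0.125, and with the replicate number as a block in the fit, at 0.0649. It was 0.0072 without CPL replicate 1 and 0.0314 without CPL replicate 3, and the log2 change stayed between 0.92 and 1.23 in the 6 fits without a library. With the GC trend removed the change was 1.23 and the limma adjusted p 0.000675.

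RAB27B lies on chromosome 18 from 54717860 to 54895516 of GRCh38, on the forward strand. It is overlapped by AC098848.1 on the opposite strand, with means of 0.241 FPKM in control and 1.32 FPKM in CPL, and AC007673.1 on its own strand, with 0.338 and 0.95 FPKM. No library held more than 25 reads of either. The preparation is not stated to keep strand, so reads of RAB27B and of its antisense partner cannot be told apart in the stretches that they share. The counts of both partners rest on how reads were assigned, and their part in the RAB27B level was not tested. Of the 50-base stretches in the transcripts of RAB27B, 3.23% were shared with another gene, AC098848.1 in each case.

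RefSeq gives RAB27B 2 promoters on GRCh38.p14, and both are shown because RAB27B is the member called higher. In mice, Rab27b expression in megakaryocytes depends on the transcription factor NF-E2, and GATA factors also act in this lineage. Capitals mark a match to NGATAA, the GATA letters, in the first and to TGANTCA, the core shared by NF-E2 and AP-1, in the other. The promoters run from 250 bases before to 50 bases after the start site, 5′ to 3′ on the forward strand, at chr18:54717607-54717906 for the upstream start and chr18:54828227-54828526 for the downstream one.
RAB27B upstream start: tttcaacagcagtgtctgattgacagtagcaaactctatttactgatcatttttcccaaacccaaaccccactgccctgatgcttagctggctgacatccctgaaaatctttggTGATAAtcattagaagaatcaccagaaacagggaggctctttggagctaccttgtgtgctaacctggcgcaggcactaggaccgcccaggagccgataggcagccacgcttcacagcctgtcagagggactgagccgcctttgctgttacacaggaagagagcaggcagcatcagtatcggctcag
RAB27B downstream start: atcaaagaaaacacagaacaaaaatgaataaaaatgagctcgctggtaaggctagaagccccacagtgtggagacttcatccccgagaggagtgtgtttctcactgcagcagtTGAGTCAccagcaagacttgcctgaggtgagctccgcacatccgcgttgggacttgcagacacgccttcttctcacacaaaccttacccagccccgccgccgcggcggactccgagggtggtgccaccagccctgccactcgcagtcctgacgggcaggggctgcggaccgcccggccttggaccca
The match TGATAA began at base -136 from the upstream start site, and the match TGAGTCA at base -137 from the downstream one. Both strands were searched for 4 motifs. TGANTCA occurred in 7.71% of all 35116 promoters in the RefSeq table and in 8 of the 70 promoters of 49 RAB genes, and NGATAA in 22.7% of all promoters and in 12 of the 70. The antioxidant response core TGACNNNGC, which can overlap TGANTCA, occurred in 13.3% and in 12 of 70, and the E-box CACGTG in 7.26% and in 6 of 70, and neither was in the RAB27B windows. The table of gene-level values does not say which start was in use. A match describes the letters of a window and says nothing of a factor being bound there.

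RAB27A, the close relative of RAB27B whose loss in people impairs lytic granule release and pigment transport, did not pass the test. It lies on the reverse strand of chromosome 15, from 55202966 to 55319113. Its level was 4.18, 3.97 and 4.46 FPKM in control and 3.03, 3.85 and 3.51 FPKM in CPL libraries. The CPL libraries lay below the controls, with means of 4.20 ± 0.247 and 3.46 ± 0.411 FPKM and an estimate of -0.22 ± 0.12 in log2 (SE, limma adjusted p = 0.331). The change was -0.10 with the GC trend removed. RAB27A overlaps PIGBOS1 and PIGB, at 14.5 and 3.41 FPKM in control and 9.61 and 2.89 FPKM in CPL, and 5.36% of its 50-base stretches were shared with other genes. The ratio of RAB27B to RAB27A was 3.60, 4.21 and 3.10 in control libraries and 9.12, 8.28 and 12.2 in CPL libraries. The 3 CPL ratios lay above the 3 control ratios, and the mean ratio of 3.64 ± 0.557 against 9.88 ± 2.09 gave a fold of 2.70 between the geometric means. The exact two-sided permutation p was 0.1, the smallest that 3 samples against 3 can give, and 0.367 after Benjamini-Hochberg adjustment over 11 pairs of related RAB genes.

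**Figure D1:**
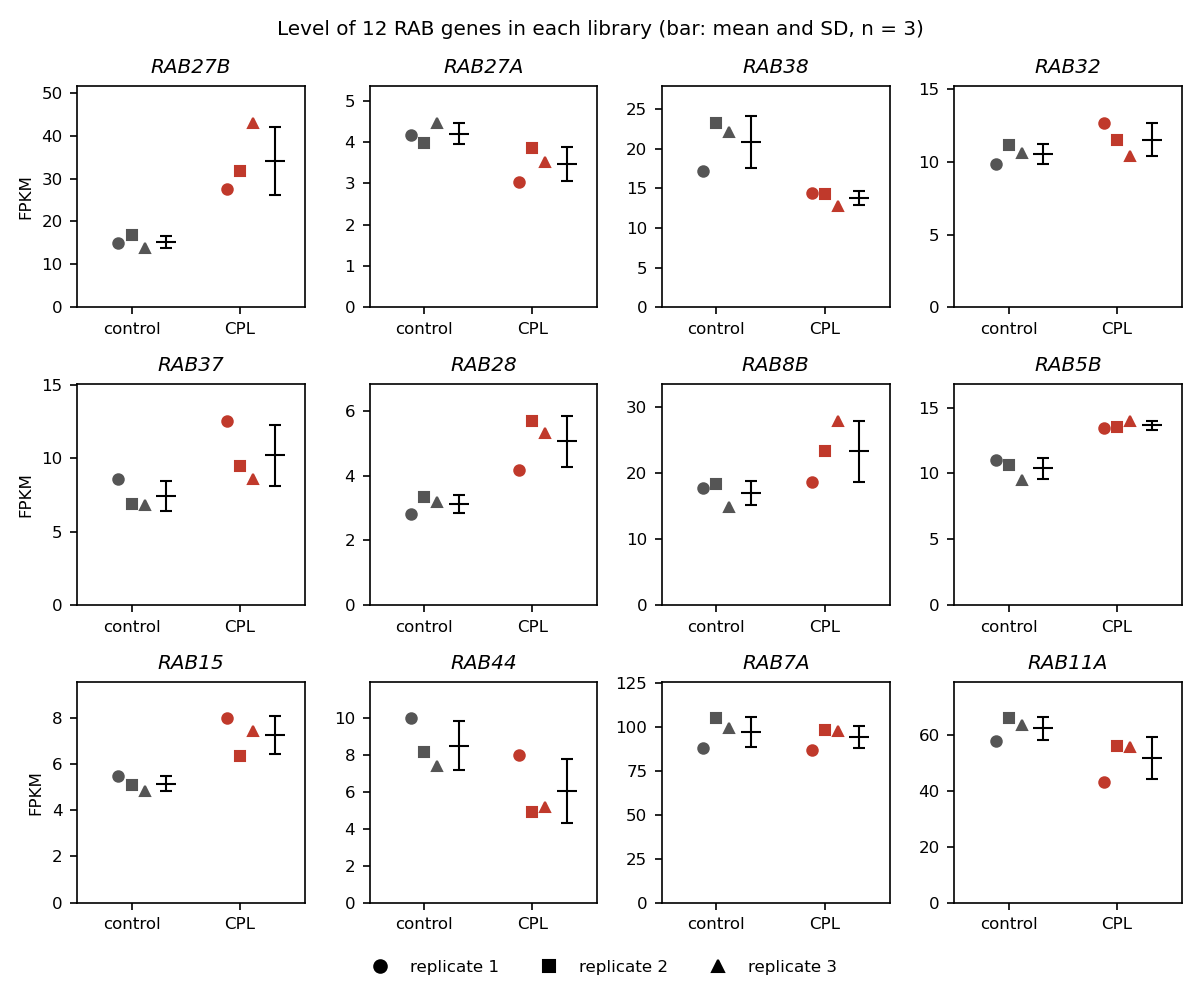
Levels in FPKM of 12 RAB genes in the 3 control and the 3 CPL libraries, with points for libraries and bars for the mean and SD. RAB27B was at 13.8 to 16.7 FPKM in control and 27.7 to 43.0 FPKM in CPL libraries, while RAB7A was at 87.8 to 104.6 and 86.9 to 97.8 FPKM.

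None of the other RABs of secretory granules and lysosome-related organelles passed the test. Of the 10 RABs in this class, 6 were high enough to test, at 1 FPKM or more in at least 3 libraries, and 1 was called, RAB27B. The median log2 change of the 6 was -0.042, and 3 of them had an unadjusted limma p under 0.05. Over all tested genes, 1.76% were called and 19.5% had an unadjusted p under 0.05, and with so few genes in a class no count by class is read as a result. RAB38, which with RAB32 drives the delivery of cargo to melanosomes and platelet dense granules, was at 17.1, 23.3 and 22.2 FPKM in control and 14.4, 14.3 and 12.8 FPKM in CPL libraries. Each CPL library lay below each control library, with means of 20.9 ± 3.26 and 13.8 ± 0.873 FPKM. The log2 change of -0.55 ± 0.13 (SE) had a limma adjusted p of 0.0918, which misses the threshold of 0.05, and of 0.0374 with the GC trend removed. The antisense transcript AP005436.2 overlaps RAB38 and had means of 1.09 and 2.07 FPKM. RAB32 was at 10.5 ± 0.682 and 11.5 ± 1.15 FPKM with overlapping groups, a log2 change of 0.12 (limma adjusted p = 0.586). The ratio of RAB38 to RAB32 was 1.75, 2.08 and 2.09 in control and 1.14, 1.24 and 1.24 in CPL libraries, groups that did not overlap (exact permutation p = 0.1, adjusted p = 0.367).

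RAB37, which acts in granule exocytosis in mast cells, was at 8.58, 6.88 and 6.80 FPKM in control and 12.6, 9.44 and 8.60 FPKM in CPL libraries. The groups did not overlap, though CPL replicate 3 was close to control replicate 1, and the log2 change of 0.40 ± 0.16 did not pass (SE, limma adjusted p = 0.223) and was 0.26 without CPL replicate 1. The RAB3 proteins and RAB26 act in regulated exocytosis of neurons and gland cells and were low in these cells. RAB3A was at 1.33 ± 0.251 FPKM in control and 1.03 ± 0.154 FPKM in CPL (limma adjusted p = 0.50), with as few as 25 reads in a library. RAB3D, at 0.826 and 1.02 FPKM, RAB26, at 0.691 and 0.448 FPKM, RAB3B, at 0.173 and 0.177 FPKM, and RAB3C, at 0.0804 and 0.0648 FPKM, were under the filter and were not tested. RAB27B made up 22.6% to 26.1% of the summed FPKM of the 10 granule RABs in control libraries and 37.6% to 53.1% in CPL libraries. The sum itself was 57.6 to 65.2 FPKM in control and 73.2 to 81.0 FPKM in CPL libraries. RAB27B is part of this sum, so the sum is no result about the other granule RABs.

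No endosomal RAB was called by limma in either direction, and 3 of the 17 tested (17.6%) had an unadjusted p under 0.05, beside 1.76% and 19.5% of all tested genes. The early and recycling endosome class held 14 genes, of which 12 were tested, with a median log2 change of 0.032. The late endosome, lysosome and autophagosome class held 7, of which 5 were tested, with a median of -0.054, or -0.12 without control replicate 1 and -0.25 without CPL replicate 2. Over all 17 tested endosomal RABs, 2 had all CPL libraries above all controls and 3 below, beside 14.1% and 14.9% of all tested genes. The 17 are therefore near the background of 29.1%. RAB5A, RAB5B and RAB5C mark the early endosome together. RAB5B was at 11.0, 10.6 and 9.51 FPKM in control and 13.4, 13.5 and 14.0 FPKM in CPL libraries, so that the groups did not overlap. Its means were 10.4 ± 0.783 and 13.6 ± 0.314 FPKM and its log2 change 0.36 ± 0.098 (SE, limma adjusted p = 0.113, and 0.0118 with the GC trend removed). RAB5A and RAB5C overlapped between groups, with means of 13.2 and 12.8 FPKM and of 14.9 and 15.2 FPKM (limma adjusted p = 0.866 and 0.91). The ratio of RAB5B to RAB5A was 0.787 ± 0.0573 in control and 1.08 ± 0.182 in CPL without overlap (exact permutation p = 0.1, adjusted p = 0.367). It was highest in CPL replicate 1, at 1.29, beside 1.02 and 0.9475 in CPL replicates 2 and 3. RAB15, which acts in endosomal sorting and recycling, was at 5.14 ± 0.322 FPKM in control and 7.23 ± 0.824 FPKM in CPL without overlap. It changed by 0.42 ± 0.11 in log2 (SE, limma adjusted p = 0.116, and 0.037 with the GC trend removed). Without CPL replicate 1 the limma adjusted p of RAB15 was 0.09, and 0.0793 when the GC trend was also removed.

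Among recycling RABs, RAB11A, which returns cargo from the recycling endosome to the surface, was at 57.8, 66.0 and 63.6 FPKM in control and 43.2, 56.2 and 55.9 FPKM in CPL libraries. The CPL libraries lay below the controls, with the lowest value in CPL replicate 1. The log2 change was -0.27 (limma adjusted p = 0.287), and -0.15 without CPL replicate 1. Its paralog RAB11B was at 42.4, 38.5 and 42.4 FPKM in control and 75.5, 48.1 and 36.9 FPKM in CPL libraries. CPL replicate 1 set the difference, since the log2 change of 0.31 was 0.037 without it (limma adjusted p = 0.491 and 0.879). RAB4A, of the fast recycling route, was at 10.7 ± 0.417 and 9.40 ± 0.516 FPKM, apart and lower (limma adjusted p = 0.372). Its log2 change of -0.17 was -0.050 with the GC trend removed, and 17.9% of its 50-base stretches were shared with other genes. RAB14, which acts between endosomes and the Golgi, had means of 37.8 and 32.2 FPKM, and RAB31, RAB22A and RAB21 of the RAB5 subfamily had means of 22.1 and 23.9, 3.30 and 3.01, and 4.95 and 5.11 FPKM. These 4 genes overlapped between groups. Without CPL replicate 1 the log2 change of RAB14 went from -0.24 to -0.11. Over the 4, the limma adjusted p ranged from 0.362 for RAB14 to 0.896 for RAB21.

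RAB7A, which drives late endosome and lysosome fusion, was the most abundant RAB in both groups. It was at 87.8, 104.6 and 99.0 FPKM in control and 86.9, 97.8 and 97.3 FPKM in CPL libraries. The groups overlapped, and the log2 change was -0.045 (95% interval -0.29 to 0.20, limma adjusted p = 0.845). RAB9A, which returns cargo from late endosomes to the Golgi, had means of 10.9 ± 2.01 and 9.09 ± 1.05 FPKM with overlap (limma adjusted p = 0.451). RAB29, a partner of the kinase LRRK2 at the Golgi and lysosomes, was at 7.09, 7.22 and 6.87 FPKM in control and 6.32, 5.67 and 5.31 FPKM in CPL libraries, apart and lower, with a log2 change of -0.25 (limma adjusted p = 0.232).

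Of the 7 RABs of plasma membrane delivery and the cilium, all were tested and none was called by limma, beside 1.76% of all tested genes. At an unadjusted p under 0.05 there were 2, or 28.6%, beside 19.5%, and the median log2 change was 0.16, or 0.090 without control replicate 2. RAB28, which acts in the turnover of ciliary and photoreceptor membranes, was at 2.83, 3.36 and 3.19 FPKM in control and 4.19, 5.71 and 5.33 FPKM in CPL libraries. Each CPL library lay above each control library. The means of 3.12 ± 0.27 and 5.07 ± 0.79 FPKM differed by 0.55 ± 0.13 in log2 (SE, limma adjusted p = 0.0895), with 92 to 136 reads behind each control value and 144 to 205 behind each CPL value. RAB8B, which acts in exocytic and ciliary transport, was at 17.8, 18.3 and 14.9 FPKM in control and 18.7, 23.3 and 27.9 FPKM in CPL libraries. The groups did not overlap, and the log2 change was 0.42 ± 0.16 (SE, limma adjusted p = 0.21). Without CPL replicate 1 the limma adjusted p was 0.0202 for RAB28 and 0.0404 for RAB8B, and with the GC trend removed it was 0.0053 and 0.0052. RAB10, which delivers vesicles to the plasma membrane, had means of 54.3 ± 0.243 and 50.2 ± 4.69 FPKM, apart and lower. Its log2 change of -0.12 (limma adjusted p = 0.551) was -0.038 without CPL replicate 1.

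The 18 RABs of the endoplasmic reticulum and Golgi included 11 that were tested, with a median log2 change of -0.0047, no call by limma and 1 gene (9.09%) at an unadjusted p under 0.05, beside 1.76% and 19.5% of all tested genes. The median was 0.094 without CPL replicate 1 and 0.076 with the GC trend removed. RAB2A, which acts in transport between these compartments, was at 14.6, 13.6 and 15.1 FPKM in control and 11.4, 12.1 and 12.3 FPKM in CPL libraries. The CPL libraries lay below the controls, and the log2 change of -0.25 did not pass (limma adjusted p = 0.212) and was -0.13 with the GC trend removed. Of the 6 less studied RABs, 3 were tested, with a median log2 change of 0.27 that CPL replicate 1 set, since it was 0.000425 without that library and 0.024 with the GC trend removed. RAB44, a large RAB with calcium-binding motifs found in blood cells, is singled out here after its values were seen. It was at 9.97, 8.13 and 7.39 FPKM in control and 8.01, 4.89 and 5.20 FPKM in CPL libraries, where CPL replicate 1 overlapped the controls and CPL replicates 2 and 3 lay below them. The log2 change was -0.45 (limma adjusted p = 0.241), -0.64 without CPL replicate 1 (limma adjusted p = 0.0333) and -0.60 with the GC trend removed (limma adjusted p = 0.0211).

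Across the family, 44 of the 62 RABs were tested and 18 were under the filter. Of the 18, 11 were under 0.3 FPKM in every library, among them RAB25 and RAB7B, and the highest value of the other 7 was 1.33 FPKM, for RAB3D. RAB30 and RAB3A passed the filter with some libraries under 1 FPKM. Of the 44, 1 was called higher and none lower by limma, a share of 2.27%, beside 1.76% of all tested genes (1.09% higher and 0.665% lower). At an unadjusted p under 0.05 there were 10, or 22.7%, beside 19.5% of all tested genes. The CPL libraries lay on one side of the controls for 13 of the 44, 6 higher and 7 lower, or 29.5% beside 29.1%. These shares are near the background, so the counts are no result about the family. The log2 change was positive for 24 and negative for 20, with a median of 0.032 beside -0.0051 for all tested genes, and ran from -0.55 for RAB38 to 1.10 for RAB27B. It was under 0.3 in size for 35 of the 44, or 79.5%, beside 72.3% of all tested genes. The summed FPKM of the 62 genes was 727.9, 747.8 and 748.2 in control and 761.4, 771.4 and 774.2 in CPL libraries. The CPL sums lay above the control sums, at 769.0 ± 6.76 against 741.3 ± 11.6, which was 0.250% to 0.258% against 0.242% to 0.250% of all FPKM. The sums include RAB27B, with means of 15.2 FPKM in control and 34.2 FPKM in CPL. They were not tested and are no result about the other RABs. RAB7A, RAB11A, RAB10, RAB11B and RAB14 held 39.5% of the control sum and 36.6% of the CPL sum, while RAB27B was 16th in level in control.

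**Figure D2:**
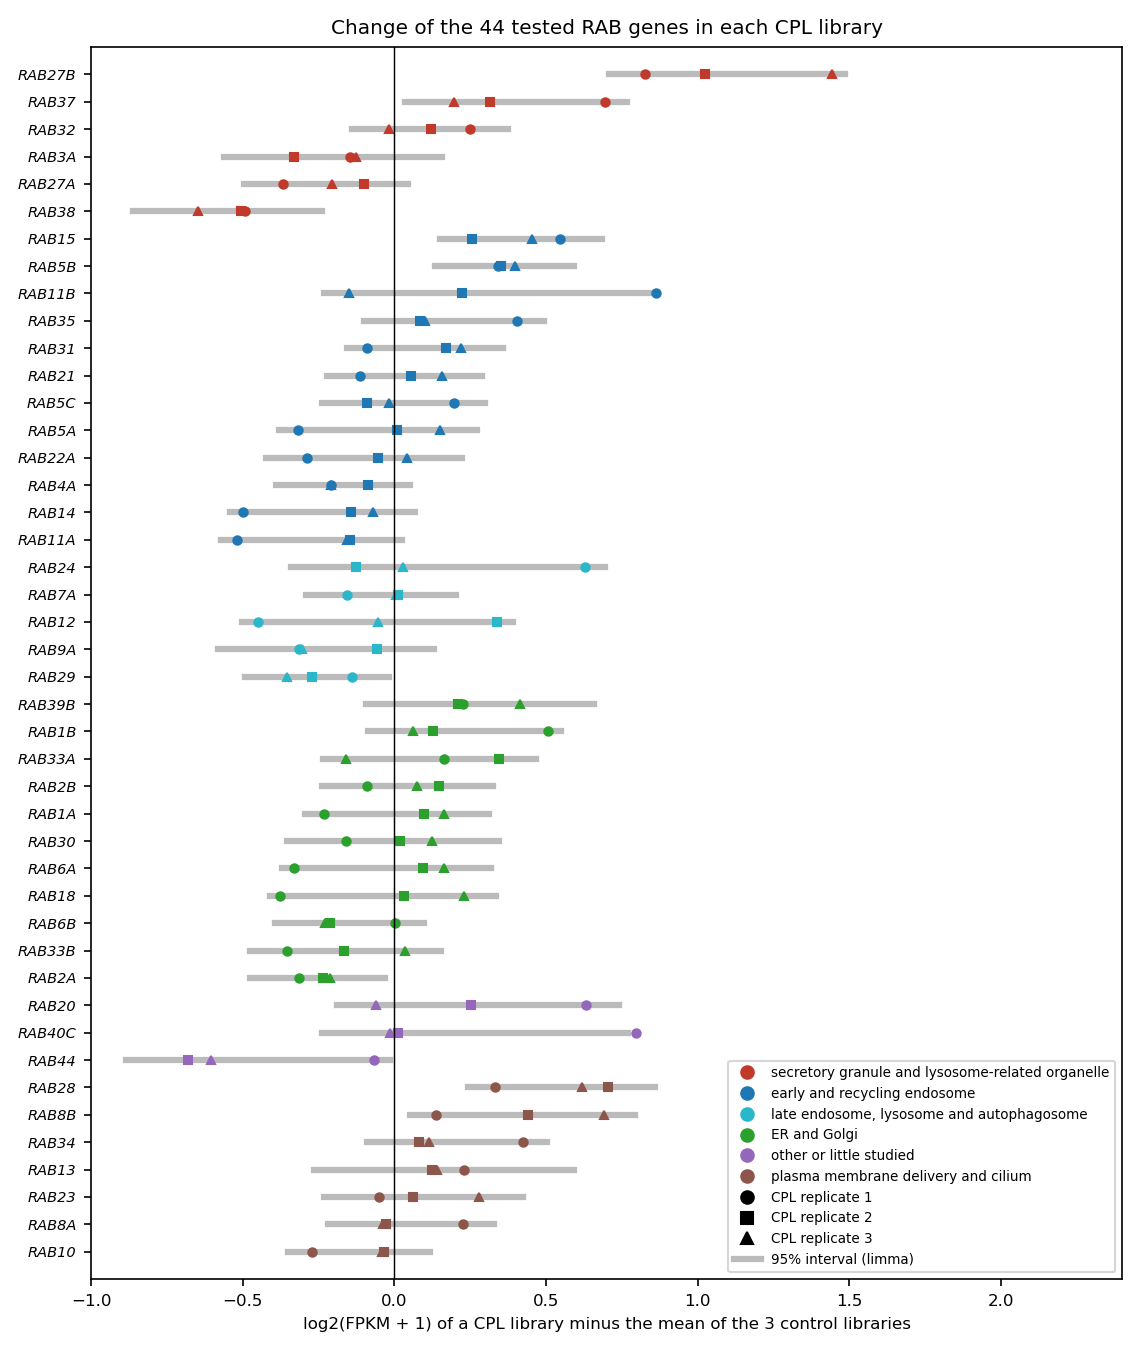
Change of the 44 tested RAB genes in each CPL library against the mean of the 3 control libraries, in log2(FPKM + 1), with marker shapes for the libraries, colours for membrane classes and grey bars for the 95% interval of the limma estimate. RAB27B is the farthest to the right, with an interval of 0.71 to 1.49, and RAB38 has the lowest estimate, -0.55.

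**Figure D3:**
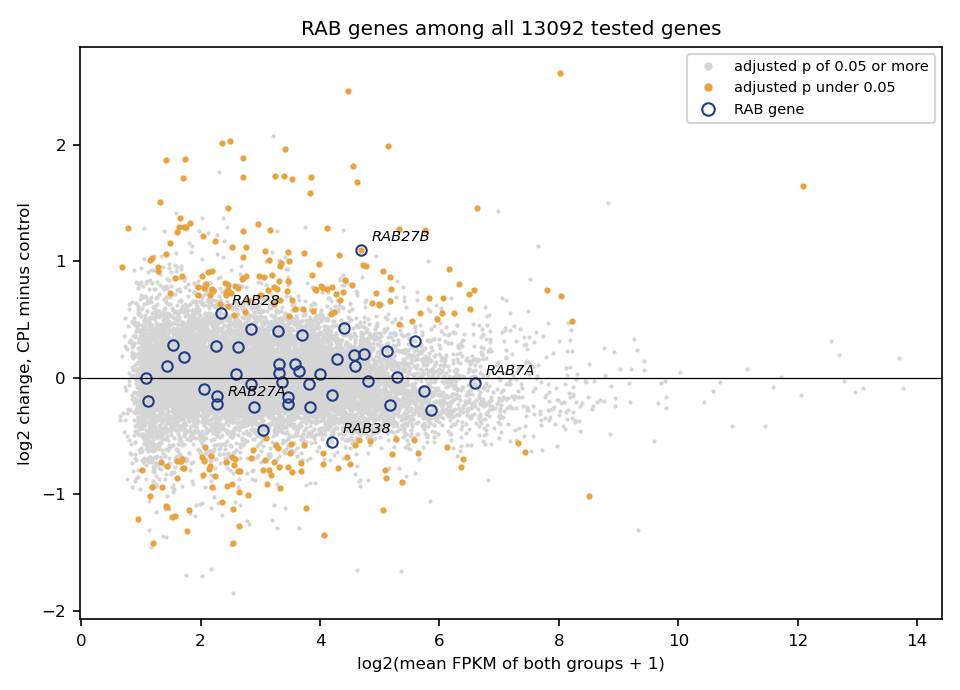
Log2 change against mean level, log2(mean FPKM + 1), for all 13092 tested genes as dots, orange where the adjusted p was under 0.05 and grey otherwise, with open circles for the 44 tested RAB genes. RAB27B, at 1.10, stands above the other RAB genes, 35 of which lie within 0.3 of 0.

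The RAB changes differed between CPL libraries and followed GC content most closely in CPL replicate 1. Over the 44 genes, Spearman's correlation of the change with the GC content of the longest transcript was 0.59 in CPL replicate 1, 0.029 in CPL replicate 2 and -0.26 in CPL replicate 3, as a description of points that share a library. RAB40C, an adaptor of ubiquitin ligases singled out after its values were seen, shows the pattern, with 8.59 FPKM in CPL replicate 1, 4.57 and 4.47 FPKM in the other CPL libraries and 4.52 ± 0.142 FPKM in control. Over all tested genes, the deviation of CPL replicate 3 ran the other way, with a rank correlation with GC content of -0.475. RAB27B, at 35.9%, had the lowest GC content of the 44 and its highest level in that library. With the GC trend removed, 7 RABs were called, RAB27B, RAB28, RAB8B, RAB5B and RAB15 higher and RAB44 and RAB38 lower. That is 15.9% of the RABs, beside 13.5% of all tested genes (7.12% higher and 6.36% lower). Without CPL replicate 1, RAB27B, RAB28 and RAB8B were called higher and RAB44 lower, 9.09% of the RABs beside 5.57% of all tested genes (2.84% higher and 2.73% lower). With both changes together, 4 RABs were called higher and 2 lower, beside 9.39% of all tested genes (4.63% higher and 4.76% lower). RAB15 was no longer among those called.

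**Figure D4:**
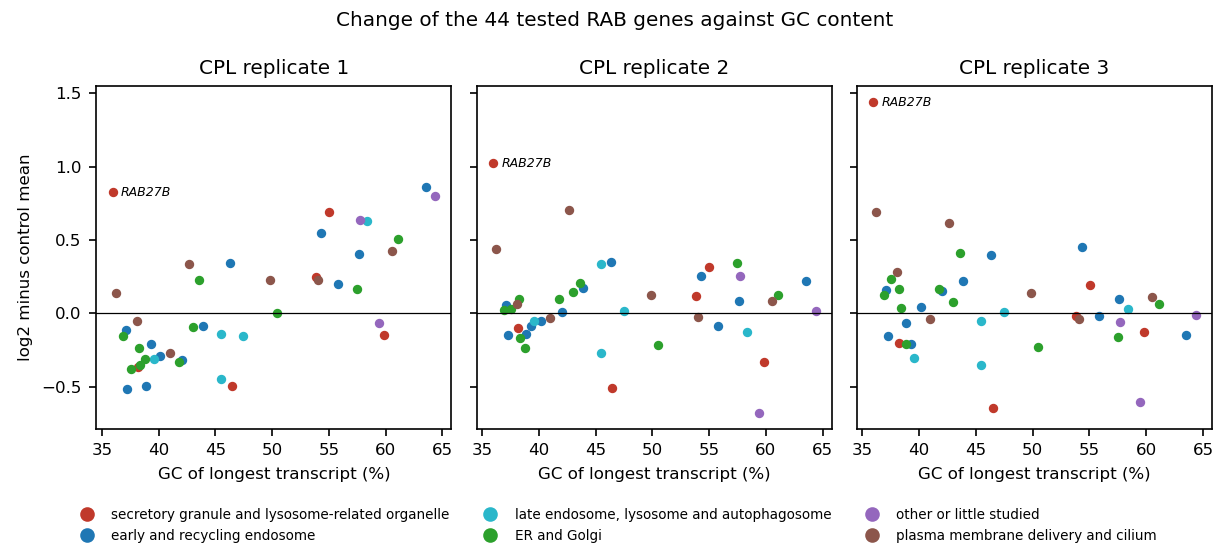
Change of the 44 tested RAB genes, in log2(FPKM + 1) minus the control mean, against the GC content of the longest transcript in percent, with 1 panel per CPL library and colours for membrane classes. The changes rise with GC in CPL replicate 1, with a Spearman correlation of 0.59, against 0.029 and -0.26 in CPL replicates 2 and 3.

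The estimated changes of RAB paralogs did not all have the same sign, but no pair passed the exact permutation test, whose smallest p is 0.1. The log2 change of RAB5A turned from -0.053 to 0.045 with the GC trend removed. Of the 11 pairs compared by the ratio of their FPKM within a library, 3 had groups that did not overlap, RAB27B to RAB27A, RAB38 to RAB32 and RAB5B to RAB5A. Groups did not overlap for 29.1% of the single genes tested. No such share was computed for ratios, and the ratios carry no GC correction, so this count is no result about pairs. The ratio of RAB8B to RAB8A was 1.52 ± 0.268 in control and 2.03 ± 0.582 in CPL, and that of RAB11B to RAB11A 0.662 ± 0.075 and 1.09 ± 0.579, both with overlap (exact permutation p = 0.3 for each, adjusted p = 0.412). The values of RABs that share sequence with other genes are uncertain, since reads there could be split. RAB23 shared 57.3% of its 50-base stretches with another gene, BAG2. BAG2 was at 12.6 FPKM in control and 13.5 FPKM in CPL, and RAB23 at 1.63 and 1.82 FPKM. RAB8A shared 39.1%, most with AC008894.2, RAB24 38.2%, all with MXD3, and RAB1B 34.0%, most with AP001107.2. RAB5C shared 24.8%, most with AC099811.2, RAB13 21.9%, most with AL358472.6, and RAB6A 20.1%, most with RAB6C. RAB1A shared 18.1%, most with CEP68, against none for RAB28, RAB38, RAB44 and RAB8B.

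**Figure D5:**
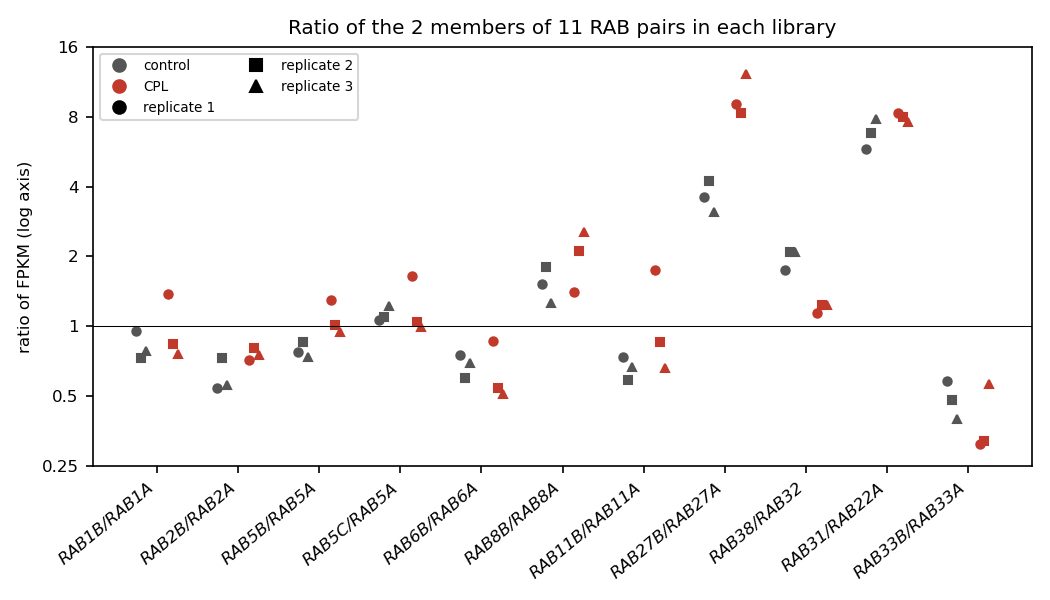
Ratio of FPKM within each library for 11 pairs of related RAB genes, on a log axis, with points for the 3 control and the 3 CPL libraries. The CPL points lie above the control points for RAB27B/RAB27A and RAB5B/RAB5A and below them for RAB38/RAB32, and overlap for the other 8 pairs.

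The proteins that act on RABs were followed in 6 lists, of exchange factors, GTPase-activating proteins, prenylation and recycling factors, effectors, granule biogenesis factors and granule fusion proteins. Of 192 listed genes in the table, 156 were tested and 1 was called, DENND5A, with none lower, beside 1.76% of all tested genes. At an unadjusted limma p under 0.05 there were 31, or 19.9%, beside 19.5% of all tested genes. The log2 change was positive for 103 of the 156 and negative for 53, beside 6437 and 6655 of all tested genes. Its median was 0.095, beside -0.0051 for all tested genes, and 0.074 without CPL replicate 1. Some genes stand in more than 1 list. DENND5A, an exchange factor of the DENN domain family that also binds RAB6, was at 5.99, 6.42 and 6.31 FPKM in control and 12.2, 11.0 and 10.6 FPKM in CPL libraries. The groups lay far apart, with means of 6.24 ± 0.22 and 11.3 ± 0.831 FPKM, 0.76 ± 0.10 apart in log2 (SE, limma adjusted p = 0.018). Its limma adjusted p was 0.114, 0.101 and 0.116 without control replicate 1, 2 and 3, and 0.10 without CPL replicate 2. It passed when CPL replicate 1 or 3 was left out, at 0.0079 and 0.0319. By list, 1 of 27 tested exchange factors was called, with a median log2 change of 0.10. There were no calls among 28 GTPase-activating proteins (median 0.15), 49 effectors (0.074), 11 prenylation and recycling factors (0.10), 28 granule biogenesis factors (0.10) and 19 fusion proteins (-0.014). With the GC trend removed, limma called 31 of the 156 machinery genes (19.9%), 25 higher and 6 lower. Of all tested genes 13.5% were then called, 7.12% higher and 6.36% lower. Counted in each list they stand in, the 31 were 9 exchange factors, 4 GTPase-activating proteins, 8 effectors, 2 prenylation and recycling factors, 6 granule biogenesis factors and 5 fusion proteins. Leaving out CPL replicate 1 gave 9 of the 156 (5.77%), beside 5.57%. No count by list is read as a result. Without CPL replicate 1 the median was 0.069 for GTPase-activating proteins, 0.040 for granule biogenesis factors and 0.074 for fusion proteins, so that the last turned in sign, as it did with the GC trend removed (0.062). The 4 granule RAB partners followed by name missed the threshold. SYTL4, a RAB27 effector on granules, had means of 4.03 and 4.31 FPKM, and UNC13D, the RAB27 effector that primes granules for fusion, 20.7 and 19.4 FPKM (limma adjusted p = 0.755 and 0.753). HPS1 and HPS4, the subunits of the BLOC-3 exchange factor for RAB32 and RAB38, had means of 17.0 and 23.3 FPKM and of 7.13 and 7.50 FPKM (limma adjusted p = 0.188 and 0.766). MADD, an exchange factor for RAB3 and RAB27 proteins named after its values were seen, had means of 15.9 and 22.9 FPKM. Its limma adjusted p was 0.0551, and 0.0252 without CPL replicate 1. With the GC trend removed, the limma adjusted p was 0.0143 for UNC13D, which was then lower, and 0.0238 for HPS1 and 0.0054 for MADD, which were higher. That of HPS1 was 0.0539 when CPL replicate 1 was also left out. Without CPL replicate 3, and with no GC correction, the log2 change of UNC13D was 0.032 where it was -0.13 over all libraries. Without CPL replicate 1 the log2 change of UNC13D was -0.35 (limma adjusted p = 0.0542). It was -0.38 when the GC trend was also removed (limma adjusted p = 0.0219).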

How the data were processed

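RNA of 3 control and 3 CPL samples of SET-2 cells was sequenced. The authors deposited 1 table of values for 30735 genes, and no header names its unit. It was taken as FPKM, because low deposited values, multiplied by gene length in GENCODE 29, fell on steps of 1 read. Within 0.1 read, 98.7% to 99.0% of each library's values of at most 20 reads were whole. Per the submitters' processing notes, the build was GRCh38 and the tools named, without their roles, were RSEM 1.2.12, HISAT2 2.0.4, DESeq2 1.4.5 and Bowtie2 2.2.5. Because FPKM is scaled to the library total, a rise of very abundant genes lowers the rest. Groups came from the sample titles, and 0 value columns belonged to no sample.

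Values were set to log2(FPKM + 1), a scale that understates the change of low genes. Genes at 1 FPKM or more in at least 3 libraries were kept, 13092 in all, and group was the single term of a fit in limma 3.58.1 (R 4.3.3) with trend and robust moderation, tested two-sided with Benjamini-Hochberg adjustment over all tested genes at 0.05. Ratios of paralogs were compared by exact permutation. The GC trend was removed with a loess of span 0.5 per library on the GC content of the longest GENCODE 29 transcript. Alternatives were other pseudocounts and filters, a replicate block, quantile normalization and fits without each library. Promoters came from RefSeq on GRCh38.p14, where 49 of the 62 RAB genes had an entry. Python 3.11.15, numpy 2.4.6, pandas 2.3.3 and matplotlib 3.10.9 were used.

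The members, membrane classes, machinery lists and markers were chosen with earlier results of these data known. The genes named were RABs past the threshold, 20 granule and endosomal RABs whatever their test, the 5 most abundant RABs, up to 8 further RABs with the largest change whose groups did not overlap, up to 4 called members per machinery list, and SYTL4, UNC13D, HPS1 and HPS4.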

Additional observations from a re-analysis of the deposited data

How the results depend on the processing

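As reported, limma called 1 RAB higher and 0 lower, 143 genes higher and 87 lower over the table, and 1 machinery gene higher and 0 lower. Leaving out 1 library at a time gave 0 to 3 RABs higher and 0 to 1 lower, 20 to 363 genes higher and 1 to 348 lower, and 0 to 8 machinery genes higher and 0 to 1 lower. With no filter on low values there were 0 RABs, 21 genes higher and 4 lower, and 0 machinery genes, and RAB27B had a limma adjusted p of 0.125. A filter at 5 FPKM gave 4 machinery genes higher. With the GC trend removed there were 5 RABs higher and 2 lower, 931 and 831 genes, and 25 and 6 machinery genes. With that and the replicate block there were 5 and 1 RABs, where RAB37 was gained (adjusted p = 0.0423 in limma) and RAB15, RAB38 and HPS1 were lost (0.0813, 0.0865 and 0.0703), 583 and 508 genes, and 13 and 3 machinery genes. With the GC trend removed and without CPL replicate 1 there were 4 and 2 RABs, 590 and 607 genes, and 17 and 5 machinery genes. The cause of these differences was not tested. Pseudocounts of 0.1 and 0.01 and quantile normalization kept the RAB counts at 1 and 0. The median log2 change of the RABs stayed between -0.012 and 0.076 in all alternatives. RAB27B and DENND5A were higher in CPL in all of these alternatives. DENND5A had a limma adjusted p of 0.0762 with no filter.

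The deviations of same-numbered samples correlated at 0.084, 0.089 and -0.17. GC trends were not removed before this comparison, so it cannot decide whether same-numbered samples form pairs. The labels number both groups alike and do not say whether these samples were handled together. The replicate block left 0 RABs, 48 genes higher and 15 lower and 0 machinery genes called, with an adjusted p of 0.0649 for RAB27B in limma. At 14647833 to 18239406 reads per library, the 18 RABs under the filter rested on at most 91 reads in any library, and they were left out by level, with no test of what this depth could detect.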
